A study of Mus musculus with 6 samples.

Results

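Monocytic cells were picked out of c-Kit-enriched bone marrow by the RNA they held. A cell was counted as monocytic when it had at least 1 UMI (unique molecular identifier, 1 counted RNA molecule) of each of Irf8, Csf1r and Ly86, at least 1 UMI of F13a1, Ms4a6c or Ccr2, and no UMI of Siglech or C1qa, which mark plasmacytoid dendritic cells and macrophages. Its natural log of 1 plus Ms4a3 UMIs per 10000 also had to be at most 3, which kept out the cells above 3, taken here as granulocyte-monocyte progenitors (GMPs). The study set its own limit for GMPs on scaled Ms4a3 values, a different quantity. These measured UMIs, from all cells of all mice, are what the cells were chosen by. The rule found 1436 cells, 4.38% of the 32762 cells that passed the filters on gene number and mitochondrial share, with 480, 490 and 466 of them in pools 1, 2 and 3. GMPs, with which they are compared at the end, numbered 7021, and no cell was in both sets.

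The marrow came from 9 BALB/c mice, an inbred strain without an engineered allele, harvested at 10 weeks of age. Non-tumor-bearing (NTB) mice had no tumor. The other 2 groups carried tumors of 4T1, a BALB/c mammary carcinoma line that serves as a model of triple-negative breast cancer, and received either vehicle or brequinar (BRQ) at 10 mg/kg daily for 2 weeks by the study's methods. BRQ blocks dihydroorotate dehydrogenase (DHODH), the mitochondrial enzyme of pyrimidine synthesis. Each group had 3 mice, and 1 mouse of each group was hashed and mixed into each of 3 pools, so that mouse 1 of every group ran in pool 1. There was no BRQ group without tumor, all tumors came from the 1 cell line, and magnetic beads, not a flow gate, set which cells entered.

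Monocytes arise in marrow from GMPs and from monocyte-dendritic cell progenitors. IRF8 and KLF4 steer progenitors toward the monocyte fate and away from neutrophils, CSF1R is the receptor through which M-CSF sustains the lineage, and CCR2 lets the finished Ly6C-high monocyte leave the marrow. On the way, cells stop dividing, lose KIT and CD34 and shut down the primary granule proteases. In tumor-bearing hosts these cells are a source of monocytic myeloid-derived suppressor cells (MDSCs).

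Every comparison between mice rests on the antibody-borne hashtags, whose barcode reads set the mouse of a cell, so the barcodes are given here as the deposited feature tables list them, written 5′ to 3′ and without capitals because no base has a special role.
NTB: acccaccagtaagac
vehicle: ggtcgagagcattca
BRQ: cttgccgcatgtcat
By these tags 976 monocytic cells (68.0%) were given to a mouse, 305 (21.2%) had no clear tag, against 40.0% of all filtered cells, and 155 (10.8%) had 2 tags or more. In pools 2 and 3 the vehicle tag was also high in cells of other mice, with a median of 819 and 977 UMIs in cells given to the BRQ mice of those pools, beside 996 and 1226 of their own tag. Cells given to NTB mice 2 and 3 held more of the vehicle tag, at medians of 772 and 898 UMIs, than of the NTB tag, at 582 and 456, so the origin of these cells is less sure, and every comparison with the NTB mice rests on them. The main results are given with stricter tag settings beside them. Cell barcodes shared between pools numbered 43, 48 and 38.

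Every monocytic cell held Irf8, Csf1r and Ly86 by the rule. Irf8 had a median of 13 UMIs per monocytic cell, F13a1, which encodes the coagulation factor XIII A chain, 10, Ms4a6c 8, Ccr2 4, Ly86, a cofactor of the Toll-like receptor relative RP105, 3, and Csf1r 2, with exactly 1 UMI in 565 of the cells. These values chose the cells and are a description. As the level that free RNA can give, among 1660 erythroid cells of the same pools, at a median of 19912 UMIs against 18574 in the monocytic cells, 6.69% had a UMI of Irf8, 2.83% of Csf1r and 1.14% of Ly86.

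Klf4, the monocyte transcription factor that the rule did not use, had a UMI in 52.0% of the monocytic cells and in 2.29% of the erythroid cells. Ly6c2, the surface antigen of inflammatory monocytes, reached 91.0% against 16.1%, Cx3cr1, the fractalkine receptor, 37.1% against 1.75%, and Cd34 74.4% against 7.23%. The proliferation gene Mki67 had a UMI in 87.0% of monocytic cells, 75.5% of GMPs and 95.4% of erythroid cells, which divide themselves, so no cells that should lack it were at hand. Genes of the primary granules stood high, with Mpo, the myeloperoxidase gene, at a mean of 50.6 UMIs per 10000 in monocytic cells against 56.0 in GMPs and 3.87 in erythroid cells. Elane, the neutrophil elastase gene, stood at 38.3, 111 and 4.36 in the same order.

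Some genes of finished monocytes, grouped here after their values were seen, were at or near 0. In the 976 cells given to mice, Vcan, the versican gene of classical monocytes, had 8 UMIs in all, Nr4a1, which patrolling monocytes need, 12, Treml4 6, Ear2 3 and Ace 0. The macrophage and neutrophil lysozyme gene Lyz2 averaged 4.66 UMIs per 10000 in monocytic cells and 22.7 in all other filtered cells, and Fn1, the fibronectin gene, had a UMI in 10.2%. Over the whole lists, however, 26 of 38 classical monocyte genes were high enough to be tested, not counting 5 that the rule used, and summed to between 6437 and 7535 CPM in a mouse, while 6 of 20 patrolling monocyte genes were, at 448 to 592 CPM. The markers thus place the cells in the monocyte lineage without separating progenitors from monocytes, and they are called monocytic cells here. S100a8, Camp and Ngp, abundant neutrophil transcripts, had a UMI in 97.9%, 73.6% and 76.5% of them against 98.3%, 78.2% and 79.9% of erythroid cells. Their detection thus did not set the monocytic cells apart. In cluster 5 of the monocytic cells, described below, Camp and S100a8 stood at 66.7 and 192 UMIs per 10000, against 0.796 and 3.59 in the other monocytic cells.

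The rule's edges lay inside a continuum. Cells that met every other condition but had no UMI of Csf1r numbered 565, at a median of 14811 UMIs, and those without Ly86 numbered 534, at 16225 UMIs, against 18574 in the monocytic cells. Siglech kept out 32 cells, C1qa 22, and the absence of Irf8 20. The Ms4a3 limit kept out 11, at a median of 3.07 on the natural log scale, and 31 monocytic cells lay within 0.25 under it, at a median of 2.83.

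Genes that the rule did not use set the monocytic cells apart from the 31326 other filtered cells. By the ratio of mean UMIs per 10000, the leading ones were Itga1, an integrin alpha chain that binds collagen, at 19.1, Apba1, an adaptor protein gene, at 17.8, Met, the hepatocyte growth factor receptor gene, at 15.7, and the interferon-inducible Ifi202b and Ifi209 at 15.4 and 13.7. Ms4a4c and Ms4a4b, membrane proteins of the same family as Ms4a6c, followed at 14.3 and 9.99, with Klf4 at 13.5, Il6st, the shared signalling chain of the IL-6 receptor family, at 11.3 and Pld4, an endolysosomal nuclease gene, at 11.3. Of the rule's own positive genes, Irf8, Ly86, F13a1, Ms4a6c and Ccr2 stood between 12.2 and 22.4, and Csf1r at 5.30. These ratios are a description of the chosen cells and were not tested.

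The monocytic cells fell into 7 clusters of 384, 272, 270, 231, 134, 131 and 14 cells when the rule's genes were left out of the clustering. Histone genes led clusters 1 and 4, and genes of mitosis such as Ube2c led cluster 3, at 5.72 UMIs of Mki67 per 10000 against 1.53 in cluster 0. Cluster 4 had the most Klf4, 1.74, Ly6c2, 8.91, and Irf8, 9.61, with the least Kit, 0.256, and Cd34, 0.615. Cluster 2 was led by Flt3, the receptor of early dendritic and lymphoid progenitors, at 0.709 against 0.0310 in cluster 4, and had the most Ccr2, 3.97, Cd34, 2.25, and Cx3cr1, 0.732. Elane stood at 48.0, 40.9 and 45.8 in clusters 0, 1 and 4, against 21.9 in cluster 2 and 27.6 in cluster 3.

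Clusters 5 and 6 held RNA of other lineages. Cluster 5 held 66.7 UMIs of Camp and 192 of S100a8 per 10000, and Scrublet, a doublet caller, marked 67.9% of its cells. Cluster 6 had erythroid genes among its leading genes, with 85.7% marked, against at most 0.741% in the other clusters. Cd74, the invariant chain of MHC class II, was found mainly in clusters 2, at 1.59, and 5, at 2.18, with 0.0288 or less in each of the other 5. Each cluster drew on all 3 pools, from 8.54% to 10.5% of a pool's monocytic cells for cluster 4 and from 21.7% to 31.0% for cluster 0. Between the mice the make-up differed, with cluster 1 at 45.8, 23.1 and 22.2% of the monocytic cells of the NTB mice, 28.2, 40.0 and 24.1% for vehicle and 14.9, 14.5 and 17.2% for BRQ, and no cell of vehicle mouse 2 in cluster 4. The BRQ mice lay below all 6 others in cluster 1. The changes below are sums over all clusters, and the part of this make-up in them was not tested.

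**Figure D1:**
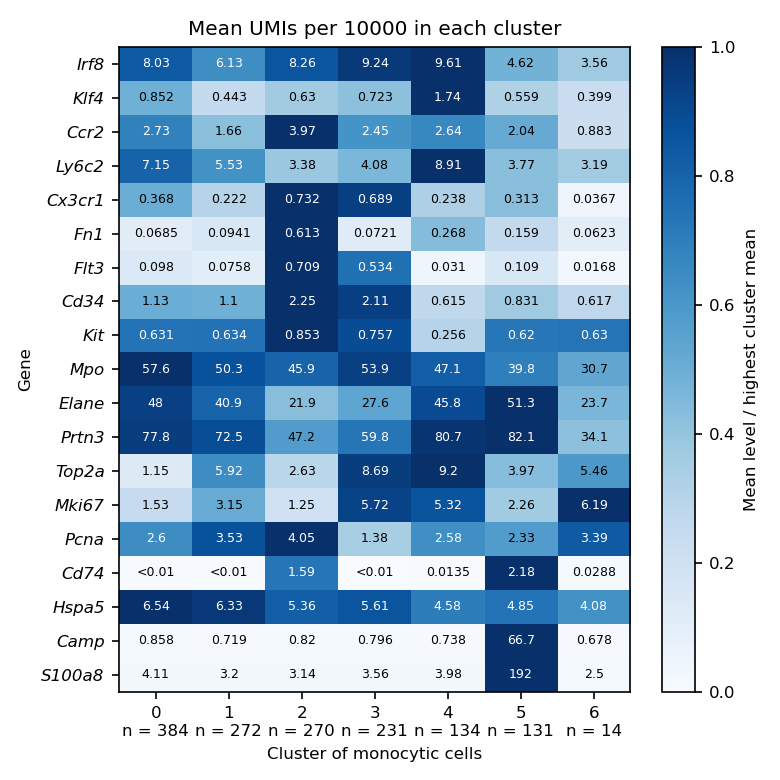
Mean UMIs per 10000 of 19 genes (rows) in the 7 clusters of monocytic cells (columns, with the number of cells), coloured by the level relative to the gene's highest cluster. Klf4 and Ly6c2 peak in cluster 4, Flt3 and Cd34 in cluster 2, and Camp and S100a8 in cluster 5.

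The monocytic cells of a mouse summed to between 499312 UMIs (NTB mouse 1, 24 cells) and 4018744 UMIs (BRQ mouse 3, 198 cells). Vehicle mouse 2 gave only 20 cells. The median depth of a monocytic cell was higher in the vehicle mice, at 21692, 24648 and 22984 UMIs, than in the NTB mice, at 18872, 19516 and 15176, or the BRQ mice, at 18234, 16192 and 19376, without overlap. Shares are therefore given below also with cells thinned to a fixed depth. Counts of calls are given also with the rule applied to cells thinned to 3000 UMIs. In these the thinning only chose the cells, whose UMIs were summed in full, so their tests are not at a fixed depth. NTB mouse 1 and vehicle mouse 2, with 2 such cells each, were under the minimum of 5 and not in that fit.

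The first question was whether tumors or BRQ changed how many monocytic cells the c-Kit-enriched marrow held. Monocytic cells made up 4.33, 4.97 and 2.58% of the cells of the NTB mice, 6.12, 5.24 and 4.38% for vehicle and 6.53, 9.22 and 8.23% for BRQ. Every BRQ mouse was above every mouse of the other groups, while the NTB and vehicle mice overlapped. The widest 95% Wilson interval was that of vehicle mouse 2, from 3.41% to 7.95% with 20 of 382 cells, and the intervals cover counting error only.

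The means were 3.96% ± 1.24 (SD, n = 3) in the NTB mice, 5.24% ± 0.866 (SD, n = 3) in the vehicle mice and 8.0% ± 1.36 (SD, n = 3) in the BRQ mice. BRQ exceeded vehicle by 2.75 percentage points (two-sided exact permutation test, p = 0.1) and NTB by 4.03 points (exact p = 0.1), and 0.1 is the smallest p that 3 mice against 3 can give, so the threshold could not be reached. Vehicle exceeded NTB by 1.28 points (exact p = 0.2). In each of the 3 pools the BRQ mouse was above the vehicle mouse and the vehicle mouse above the NTB mouse, but without the cells Scrublet marked, or with at least 2 UMIs each of Irf8, Csf1r and Ly86, each of these orders held in 2 of 3 pools. BRQ then exceeded vehicle by 2.78 and 1.35 points (exact p = 0.2 for each) and vehicle exceeded NTB by 1.1 and 0.659 points (exact p = 0.4 and 0.2).

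Because a deeper cell more easily meets a rule of at least 1 UMI, the shares were also read at a fixed depth. With each cell thinned to 9000 UMIs and shallower cells left out, which kept 295, 600 and 1048 cells of the NTB mice, 1863, 206 and 653 of the vehicle mice and 1571, 1423 and 1604 of the BRQ mice, the shares were 3.05, 4.83 and 2.77%, 4.40, 2.91 and 3.98% and 5.98, 8.85 and 7.04%. BRQ stayed above vehicle by 3.53 points and above NTB by 3.74 points (exact permutation p = 0.1 for each), and the gap of 0.215 points between vehicle and NTB had an exact p of 0.9. At 3000 UMIs few cells still met the rule, between 0.397% and 1.2% of a mouse's cells, and the BRQ and vehicle mice overlapped (exact p = 0.2). The cells without a clear tag were in no mouse's share. With clear singlets only, the BRQ mice exceeded the vehicle mice by 3.42 points (exact p = 0.2) and the vehicle mice the NTB mice by 2.36 (exact p = 0.1). With a scaled tag ratio these were 4.01 (exact p = 0.1) and 1.40 points (exact p = 0.3). With a raw ratio of the tags in place of HTODemux the difference was 0.0226 points (exact p = 1), on 1222, 48 and 95 cells of the BRQ mice and 1052, 2073 and 1381 of the vehicle mice.

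**Figure D2:**
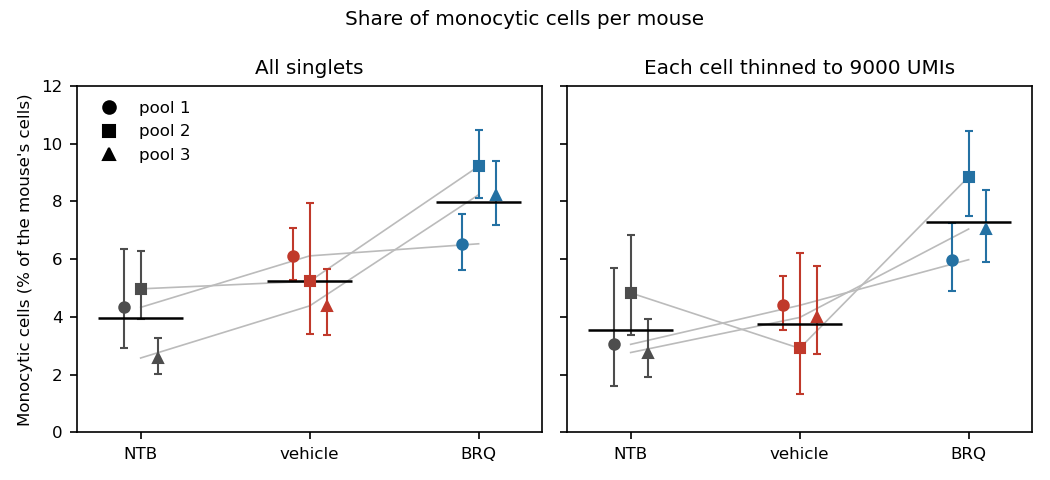
Monocytic cells as a percent of each mouse's tagged cells, with 95% Wilson intervals, in all cells (left) and with each cell thinned to 9000 UMIs (right). Grey lines join the mice of a pool, horizontal bars are group means, and the 3 BRQ mice lie above the other 6 in both panels.

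To see what a 4T1 tumor did to the RNA of monocytic cells, the summed UMIs of the 3 vehicle mice were set against those of the 3 NTB mice. Of 8735 genes tested, 45 were higher (0.515%) and 26 lower (0.298%) in the vehicle mice at an adjusted p under 0.05 by edgeR's quasi-likelihood test. Ifitm1, Pim1, Dmkn and Ctsc rose most clearly, and Cd34, Kit and Cd93 fell. Of 54 genes of the endoplasmic reticulum (ER) 5 rose, and no cell-cycle, p53 or ribosomal protein gene passed the test. Without NTB mouse 2, NTB mouse 3 or vehicle mouse 2 the count of 71 became 35, 22 and 46, with the rule applied to cells thinned to 3000 UMIs 5, with 20 cells a mouse 25, and with the pool as a block 107. Levels are CPM, the UMIs of a gene scaled to the same total in each mouse, fold changes are log2 with their standard error (SE), and each group had 3 mice.

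Ifitm1, an interferon-inducible transmembrane gene, stood at 55.3, 59.4 and 51.2 CPM in the NTB mice, 208, 497 and 341 CPM in the vehicle mice and 134, 182 and 344 CPM in the BRQ mice. All tumor-bearing mice exceeded all NTB mice (log2 fold change 2.54 ± 0.32, adjusted p = 0.00021 for vehicle). Pim1, a kinase gene induced by cytokine receptors through STAT proteins, stood at 36.2, 56.1 and 48.4 CPM in the NTB mice, 169, 153 and 190.5 CPM in the vehicle mice and 100.2, 101 and 245 CPM in the BRQ mice. It was higher in the vehicle mice (log2 fold change 1.81 ± 0.30, adjusted p = 0.00245), and the groups did not overlap. Dmkn, which encodes dermokine, stood at 21.3, 28.9 and 30.4 CPM in the NTB mice, 74.8, 63.9 and 77.4 CPM in the vehicle mice and 55.6, 63.6 and 91.4 CPM in the BRQ mice (log2 fold change 1.40 ± 0.22, adjusted p = 0.00176). Ctsc, the cathepsin that activates granule proteases, showed levels of 61.7, 61.9 and 58.8 CPM in the NTB mice, 127, 136 and 98.3 CPM in the vehicle mice and 111, 102 and 139 CPM in the BRQ mice (log2 fold change 0.97 ± 0.16, adjusted p = 0.00232). None of these 4 calls was lost without any 1 mouse.

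Cd34, a surface glycoprotein of early progenitors, was the clearest loss, at 155, 159 and 144 CPM in the NTB mice, 95.1, 94.8 and 88.3 CPM in the vehicle mice and 149, 147 and 139.9 CPM in the BRQ mice. The vehicle mice lay below both other groups without overlap (log2 fold change -0.72 ± 0.11, adjusted p = 0.00176 against NTB). Kit, the stem cell factor receptor on which the cells were enriched, stood at 106, 75.9 and 75.0 CPM in the NTB mice, 57.8, 35.1 and 36.4 CPM in the vehicle mice and 63.3, 80.8 and 64.5 CPM in the BRQ mice. It was lower in the vehicle mice (log2 fold change -0.75 ± 0.18, adjusted p = 0.0462), but the call was lost without any 1 of NTB mice 1 to 3 and vehicle mice 2 and 3, at an adjusted p from 0.105 to 0.159. Cd93, a C-type lectin-like receptor of progenitors and monocytes, followed at 206, 204 and 285 CPM in the NTB mice, 138, 118 and 120.0 CPM in the vehicle mice and 180.4, 199 and 147 CPM in the BRQ mice (log2 fold change -0.87 ± 0.14, adjusted p = 0.00176). Prtn3, the proteinase 3 gene of primary granules, rose by 0.42 ± 0.091 (adjusted p = 0.0234), a call lost without any 1 of NTB mice 2 and 3 and vehicle mice 1 and 2, at an adjusted p from 0.0521 to 0.154. Of 24 progenitor and primary granule genes tested, 2 rose, Dmkn and Prtn3, and 2 fell, Cd34 and Kit, where 0.515% of all genes were called higher and 0.298% lower. The median log2 fold change was 0.00010 against -0.015 for all genes.

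Among 26 genes of classical monocytes, 2 rose and 2 fell, where 0.515% of all genes were called higher and 0.298% lower, with a median of -0.13. Hp, the haptoglobin gene, stood at 145, 146 and 158 CPM in the NTB mice, 255, 235 and 166 CPM in the vehicle mice and 287, 259.8 and 297 CPM in the BRQ mice, and vehicle exceeded NTB by 0.55 ± 0.13 (adjusted p = 0.0462), a call lost without any 1 of NTB mice 1 to 3, vehicle mice 1 and 2 and BRQ mice 1 and 2, at an adjusted p from 0.0512 to 0.301. Emilin2, an extracellular matrix gene, rose (log2 fold change 1.13 ± 0.26, adjusted p = 0.0263), lost without any 1 of NTB mice 1 to 3 and vehicle mice 2 and 3, at an adjusted p from 0.0557 to 0.186. Ly6c1 fell (log2 fold change -0.62 ± 0.14, adjusted p = 0.0245), lost without any 1 of NTB mice 2 and 3 and vehicle mice 2 and 3, at an adjusted p from 0.0756 to 0.225, while its neighbour Ly6c2 stood at 530.0, 499 and 662 CPM in the NTB mice, 508, 389.7 and 376 CPM in the vehicle mice and 509, 615 and 529.9 CPM in the BRQ mice, where NTB and vehicle overlapped (log2 fold change -0.39 ± 0.12, adjusted p = 0.125). The 2 genes share much sequence, and reads could be split between them. None of the 17 monocyte transcription factors was called, with a median of -0.037, where edgeR gave 4 an unadjusted p under 0.05 and DESeq2 called 0. Spi1, which encodes the myeloid factor PU.1, had 0.037 ± 0.11, and Klf4 -0.39 ± 0.17 (adjusted p = 0.306).

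The other named genes that fell were Nedd4, a ubiquitin ligase gene, at 61.7, 55.3 and 50.3 CPM in the NTB mice, 27.6, 14.4 and 12.4 CPM in the vehicle mice and 32.6, 27.6 and 21.4 CPM in the BRQ mice (log2 fold change -1.32 ± 0.24, adjusted p = 0.00492), and Itga1, the integrin that set the monocytic cells apart, at 63.9, 64.4 and 80.7 CPM in the NTB mice, 38.9, 20.6 and 13.2 CPM in the vehicle mice and 43.3, 57.0 and 48.2 CPM in the BRQ mice (log2 fold change -1.26 ± 0.23, adjusted p = 0.0062, lost without NTB mouse 3, at an adjusted p of 0.0863). Vehicle mouse 1 was the highest of its group in both, and without it the log2 fold changes were -2.07 and -2.20. Cfp, the complement regulator properdin, fell by 1.12 on the log2 scale (SE 0.18, adjusted p = 0.00176). Zbtb20, a transcriptional repressor gene, had -1.15 ± 0.23, lost without NTB mouse 3, at an adjusted p of 0.142, and Ncam1, an adhesion molecule gene, -1.34 ± 0.28, lost without any 1 of NTB mouse 3 and vehicle mouse 3, at an adjusted p from 0.0674 to 0.256. Ifi27 had -1.09 ± 0.24, lost without any 1 of NTB mice 2 and 3 and vehicle mice 2 and 3, at an adjusted p from 0.0635 to 0.168.

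Of 22 cytokine receptor and signalling genes, Pim1 was called higher and Bcl2, the survival gene, lower, at 91.5, 140.3 and 128 CPM in the NTB mice, 79.0, 53.6 and 94.5 CPM in the vehicle mice and 80.8, 85.4 and 87.3 CPM in the BRQ mice. For Bcl2 the vehicle group reached into the NTB group (log2 fold change -0.64 ± 0.15, adjusted p = 0.0288), and the call was lost without any 1 of NTB mice 2 and 3 and vehicle mice 1 and 2, at an adjusted p from 0.0961 to 0.238. Csf2rb, the shared beta chain gene of the GM-CSF, IL-3 and IL-5 receptors, had 0.63 ± 0.18 (adjusted p = 0.0974) and, against NTB, 0.62 ± 0.17 with BRQ (adjusted p = 0.0503), and was called in both with the pool as a block (0.62, adjusted p = 0.0342, and 0.61, adjusted p = 0.00506). Of 21 interferon-stimulated genes, Ifitm1 rose and Ifi27l2a and Ifi44 fell, with a median of -0.25. Beside both lists, 0.515% of all genes were called higher and 0.298% lower in vehicle against NTB. Ifi27l2a stood at 6.39, 25.6 and 128 CPM in the NTB mice, 14.7, 16.5 and 7.74 CPM in the vehicle mice and 9.83, 10.6 and 9.42 CPM in the BRQ mice. That fall of 2.21 on the log2 scale (adjusted p = 0.022) and the one of 2.16 for Ifi44 (adjusted p = 0.0382) rested on NTB mouse 3, without which they were -0.60 (adjusted p = 0.643) and -1.23 (adjusted p = 0.501). Both were also lost without vehicle mouse 1 or 3, Ifi44 without BRQ mouse 2 and with the pool as a block (-1.77, adjusted p = 0.0746) as well, and for Ifi27l2a the groups overlapped.

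Some ER genes changed in one direction with the tumor and in the other with BRQ, so all 3 groups are given together. Proteins bound for granules and the surface fold in the ER with the help of chaperones, whose genes are raised by the unfolded protein response (UPR). The study had singled out UPR pathways in GMPs of these same mice, so the direction in this list is not independent evidence. Hspa5, the gene of the ER chaperone BiP, stood at 602, 452 and 536 CPM in the NTB mice, 768, 862 and 840.0 CPM in the vehicle mice and 513, 503 and 436 CPM in the BRQ mice. The vehicle mice were above both other groups, which overlapped (log2 fold change 0.64 ± 0.11, adjusted p = 0.00245 for vehicle against NTB, and log2 fold change -0.76 ± 0.10, adjusted p = 9.2e-05 for BRQ against vehicle). Sdf2l1, a BiP partner, stood at 213, 155 and 143 CPM in the NTB mice, 278, 289 and 243 CPM in the vehicle mice and 149, 159.9 and 120.1 CPM in the BRQ mice. Creld2, an ER thiol isomerase gene, stood at 29.8, 42.1 and 50.3 CPM in the NTB mice, 77.0, 76.3 and 82.8 CPM in the vehicle mice and 42.4, 41.8 and 37.9 CPM in the BRQ mice. For both the vehicle mice again stood apart from the rest.

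Of 54 ER and UPR genes tested, 5 rose in vehicle against NTB: Hspa5, Sdf2l1 (0.71 ± 0.13, lost without any 1 of NTB mice 2 and 3, at an adjusted p from 0.066 to 0.0881), Creld2 (0.88 ± 0.16), Manf (0.55 ± 0.11), which encodes a secreted ER stress protein, and Hsp90b1 (0.48 ± 0.097), the ER form of HSP90. Manf was lost without any 1 of NTB mice 2 and 3 and vehicle mouse 2, at an adjusted p from 0.0548 to 0.101, and Hsp90b1 without any 1 of NTB mice 2 and 3, at an adjusted p from 0.078 to 0.104. None fell, where 0.515% of all genes were called higher and 0.298% lower. The median log2 fold change was 0.20 against -0.015 for all genes. In BRQ against vehicle, a comparison that shares the vehicle mice, 23 fell and 1 rose, with a median of -0.33 against 0.0098 for all genes, where 2.6% of all genes were called lower and 1.71% higher. In BRQ against NTB 2 fell, Calr (-0.41 ± 0.098) and Nucb2 (-0.69 ± 0.18), and none rose, with a median of -0.14, where 1.18% of all genes were called lower and 0.733% higher. Both were lost without single mice, Calr without any 1 of NTB mouse 1 and BRQ mice 1 to 3, at an adjusted p from 0.0556 to 0.196 and Nucb2 without any 1 of NTB mice 1 to 3 and BRQ mice 1 and 3, at an adjusted p from 0.106 to 0.224.

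Among the ER genes, the deepest falls in BRQ against vehicle were in Fkbp11, a prolyl isomerase gene of secretory cells, at 60.7, 59.8 and 59.6 CPM in the vehicle mice and 27.7, 27.8 and 28.5 CPM in the BRQ mice (log2 fold change -1.1 ± 0.14, adjusted p = 4.42e-05), and in Creld2 (log2 fold change -0.96 ± 0.12, adjusted p = 4.71e-05) and Sdf2l1 (log2 fold change -0.91 ± 0.12, adjusted p = 4.42e-05). Pdia4, a disulfide isomerase gene, had 185, 243 and 197 CPM in the vehicle mice and 116, 111 and 109.6 CPM in the BRQ mice (log2 fold change -0.84 ± 0.10, adjusted p = 4.42e-05), and Manf had 542, 664 and 513 CPM in the vehicle mice and 322, 345 and 295 CPM in the BRQ mice (log2 fold change -0.82 ± 0.10, adjusted p = 4.42e-05). None of these 5 calls, nor that of Hspa5, was lost without any 1 mouse. Dnajb11, a BiP cochaperone, had -0.61 ± 0.13 (adjusted p = 0.00991), lost without vehicle mouse 1, at an adjusted p of 0.229. The 1 gene that rose was Ern1, which encodes the UPR sensor IRE1, at 30.2, 28.9 and 28.6 CPM in the vehicle mice and 40.3, 57.0 and 48.2 CPM in the BRQ mice (log2 fold change 0.72 ± 0.16, adjusted p = 0.00955), lost without any 1 of vehicle mouse 1 and BRQ mouse 2, at an adjusted p from 0.0535 to 0.0821. The UPR transcription factors were not among the calls: Xbp1 had -0.096 ± 0.10, Atf4 -0.18 ± 0.10 and Ddit3, the CHOP gene, 0.14 ± 0.33.

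Without vehicle mouse 1 the 23 lower ER genes became 14, and with 20 cells a mouse 9. With the rule applied to cells thinned to 3000 UMIs none was called by edgeR, at a median of -0.26. The 5 of vehicle against NTB became 2 without NTB mouse 2, 2 without NTB mouse 3, 8 without NTB mouse 1 and 8 with the pool as a block. With clear singlets only 21 fell in BRQ against vehicle and 5 rose in vehicle against NTB, and with a scaled tag ratio 25 and 12.

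The promoters of ER chaperone genes carry a known control element, the ER stress response element, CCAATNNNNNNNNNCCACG, and its letters were searched on both strands in the 250 bases before each gene's start (RefSeq, GRCm38.p6). Of the 23 ER genes lower in BRQ than in vehicle, 19 had a promoter in the table and 6 of these (31.6%) held the element. It stood in 2 of 22 (9.09%) of the other ER genes tested, in 11 of 7048 (0.156%) of all genes tested and in 33 of 27025 (0.122%) of all promoters in the table. The windows of 3 of the 6, Hspa5 (chr2:34771840-34772089, plus strand), Hsp90b1 (chr10:86705445-86705694, minus strand) and Creld2 (chr15:88819396-88819645, plus strand), are shown 5′ to 3′ on the gene's strand because they show the element in both orientations, with its match in capitals.
Hspa5: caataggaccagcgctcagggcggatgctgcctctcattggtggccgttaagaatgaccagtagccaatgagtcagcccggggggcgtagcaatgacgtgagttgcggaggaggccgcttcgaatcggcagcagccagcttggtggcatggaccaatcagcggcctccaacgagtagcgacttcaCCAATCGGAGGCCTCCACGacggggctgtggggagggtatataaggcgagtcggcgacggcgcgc
Hsp90b1: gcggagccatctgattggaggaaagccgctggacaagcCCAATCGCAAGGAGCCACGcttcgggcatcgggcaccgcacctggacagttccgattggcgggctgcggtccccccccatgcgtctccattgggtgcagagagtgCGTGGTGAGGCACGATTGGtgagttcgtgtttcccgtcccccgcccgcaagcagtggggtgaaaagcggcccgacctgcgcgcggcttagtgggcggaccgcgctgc
Creld2: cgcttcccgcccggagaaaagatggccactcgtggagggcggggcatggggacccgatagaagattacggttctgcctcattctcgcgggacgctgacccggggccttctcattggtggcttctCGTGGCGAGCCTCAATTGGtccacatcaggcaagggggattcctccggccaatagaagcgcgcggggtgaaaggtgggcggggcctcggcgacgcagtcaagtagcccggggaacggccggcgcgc
The Hspa5 match begins 65 bases before the start and reads on the gene's strand, the Creld2 match begins 126 bases before it and reads on the opposite strand, and Hsp90b1 has 1 of each. The other 3 genes were Calr, Pdia6 and Dnajc3, with log2 fold changes of -0.64, -0.44 and -0.62 in BRQ against vehicle. A match of letters is a description and not a measured site, and Sdf2l1, Fkbp11, Pdia4 and Dnajb11 had none in this window.

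Setting the BRQ mice against the vehicle mice asked what DHODH inhibition did to monocytic cells of tumor-bearing mice. Of 8735 genes, 149 were higher and 227 lower with BRQ, and 32 of the 376 changed by more than 2-fold. Beside 23 of 54 ER genes, 45 of 77 ribosomal protein genes fell, while 4 of 14 p53 targets, Cdkn1a among them, 4 of 32 phagocyte lysosome and Fc receptor genes, and Cd34 and Myb rose. Of the pyrimidine and cell cycle genes edgeR called 2, Nme2 and Ect2, while DESeq2 called 2 pyrimidine genes and 0 cell cycle genes. The count was smaller without each of the 6 mice, from 154 without vehicle mouse 1 to 232 without BRQ mouse 2 (192 and 217 without vehicle mice 2 and 3, 185 and 198 without BRQ mice 1 and 3). It was 20 with 20 cells a mouse and 2 with the rule applied to cells thinned to 3000 UMIs.

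**Figure D3:**
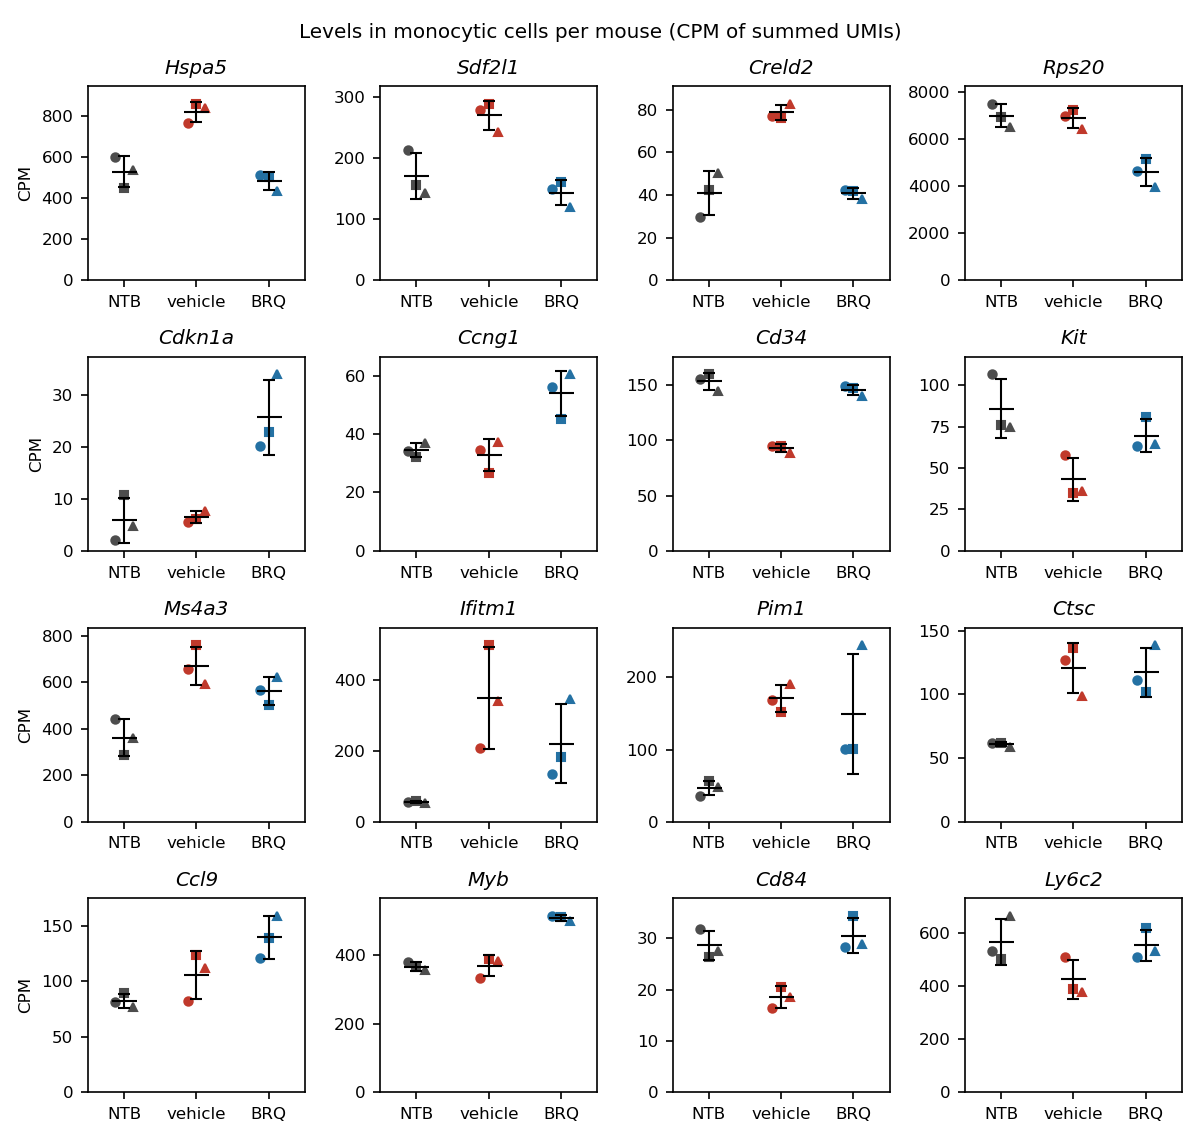
CPM of 16 genes in the monocytic cells of each mouse (circle, square and triangle for pools 1, 2 and 3), with the mean and SD of each group of 3 mice, and Ms4a3 from cells chosen without it. Hspa5, Sdf2l1 and Creld2 peak in the vehicle mice, Rps20 is low and Cdkn1a high in the BRQ mice, Cd34 is low in the vehicle mice, and Ifitm1, Pim1 and Ctsc are low in the NTB mice.

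Cytoplasmic ribosomal protein genes summed to 321652, 313834 and 292925 CPM in the NTB mice. The sums were 303359, 312609 and 281979 CPM for vehicle and 239635, 262099.5 and 218213 CPM for BRQ, and all 3 BRQ mice lay below the other 6. Of 77 such genes tested, 45 fell and 0 rose in BRQ against vehicle, with a median of -0.33, where 2.6% of all genes were called lower and 1.71% higher. In BRQ against NTB, which shares the BRQ mice, 50 fell and 1 rose, with a median of -0.37, where 1.18% of all genes were called lower and 0.733% higher. None was called in vehicle against NTB (median -0.047), where edgeR gave 1 of the list an unadjusted p under 0.05 and DESeq2 called 1. Ribosomal pathways, too, had been reported by the study for GMPs of these mice, so this direction is not independent evidence. Rps20, of the small subunit, stood at 7514, 6958 and 6521 CPM in the NTB mice, 6989, 7258 and 6416 CPM in the vehicle mice and 4643, 5158 and 3979.9 CPM in the BRQ mice. Against vehicle it fell by 0.58 on the log2 scale (SE 0.092, adjusted p = 0.000552). Rpl41, of the large subunit, fell by 0.54 (adjusted p = 0.000209) and Rps26 by 0.49 (adjusted p = 0.00128).

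The 45 lower genes became 16, 13, 17 and 16 without vehicle mice 1 and 2 and BRQ mice 1 and 3, at medians no nearer to 0 than -0.27. None was called in the equal-cell sums or with the rule applied to thinned cells. With the pool as a block 66 fell, and against NTB 72. Against NTB the 50 became 16, 13, 20 and 16 without NTB mice 1 and 2 and BRQ mice 1 and 3. The 1 gene that rose with BRQ against NTB was Rps27l (log2 fold change 0.44 ± 0.099, adjusted p = 0.0164), a paralog of Rps27 that p53 induces. With clear singlets only 50 fell in BRQ against vehicle. Many of these genes have near-identical processed copies, among which reads could be split.

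Cdkn1a, which encodes the cell-cycle inhibitor p21, the best known p53 target, stood at 2.13, 10.7 and 4.74 CPM in the NTB mice, 5.64, 6.19 and 7.74 CPM in the vehicle mice and 20.3, 22.9 and 34.0 CPM in the BRQ mice. The BRQ mice lay above all 6 others (log2 fold change 2.05 ± 0.29, adjusted p = 0.000179 against vehicle and log2 fold change 1.91 ± 0.34, adjusted p = 0.00296 against NTB). Neither call was lost without any 1 mouse, though without NTB mouse 2 the second log2 fold change was 2.72, and DESeq2 gave no adjusted p for this gene. Of 14 p53 targets tested, 4 rose with BRQ against vehicle and none fell, where 1.71% of all genes were called higher, with a median of 0.36, while DESeq2 called 1. The other 3 were Ccng1, a cyclin G gene, at 34.1, 32.2 and 37.0 CPM in the NTB mice, 34.7, 26.8 and 37.2 CPM in the vehicle mice and 55.9, 45.3 and 60.4 CPM in the BRQ mice (log2 fold change 0.65 ± 0.15, adjusted p = 0.0109), Mdm2, the ubiquitin ligase that removes p53 (0.57 ± 0.16, adjusted p = 0.0419), and Bax, the apoptosis effector (0.41 ± 0.12, adjusted p = 0.0444). Against NTB the calls were Cdkn1a, Bax (0.58 ± 0.13) and Ccng1 (0.65 ± 0.17), where 0.733% of all genes were called higher, with a median of 0.085.

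Apart from Cdkn1a these calls hung on single mice. Ccng1 was lost without any 1 of vehicle mouse 1 and BRQ mouse 3, at an adjusted p from 0.0669 to 0.101 against vehicle, Mdm2 without any 1 of NTB mouse 1, vehicle mice 1 to 3 and BRQ mice 1 to 3, at an adjusted p from 0.0551 to 0.193 and Bax without any 1 of NTB mouse 1, vehicle mice 1 to 3 and BRQ mice 1 and 3, at an adjusted p from 0.0639 to 0.219. Against NTB, Bax was lost without any 1 of NTB mice 1 and 3 and BRQ mice 1 and 3, at an adjusted p from 0.0571 to 0.122 and Ccng1 without any 1 of NTB mice 1 to 3 and BRQ mice 1 and 3, at an adjusted p from 0.0998 to 0.302. None of the list was called in vehicle against NTB, at a median of -0.12, with 0 at an unadjusted p under 0.05 by edgeR and 0 called by DESeq2. Without vehicle mouse 1 or BRQ mouse 3 the 4 of BRQ against vehicle became 1 and 1, and without NTB mouse 1 or 3 or BRQ mouse 1 or 3 the 3 against NTB became 1 each.

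Cd34 was higher with BRQ than with vehicle by 0.64 ± 0.097 (adjusted p = 0.000337), with -0.075 ± 0.097 against NTB (adjusted p = 0.86). Kit showed 0.52 ± 0.15 against vehicle (adjusted p = 0.0532), which missed the threshold, but passed it with the pool as a block (0.55, adjusted p = 0.0299). Myb, a transcription factor of dividing progenitors, stood at 381, 365 and 357 CPM in the NTB mice, 334, 389.7 and 385 CPM in the vehicle mice and 515, 512 and 499 CPM in the BRQ mice. It was higher with BRQ than in both other groups (log2 fold change 0.48 ± 0.092, adjusted p = 0.0045 against vehicle and log2 fold change 0.47 ± 0.094, adjusted p = 0.00648 against NTB), lost without vehicle mouse 1, at an adjusted p of 0.0551 for the first and without NTB mouse 2, at an adjusted p of 0.0561 for the second. Calr, counted in this list for its surface form but an ER chaperone gene, fell with BRQ (log2 fold change -0.64 ± 0.098, adjusted p = 0.000354). The progenitor and primary granule list thus held 2 higher and 1 lower of 24, where 1.71% of all genes were called higher and 2.6% lower, with a median of 0.045. Mpo, Elane and Prtn3 had -0.13 ± 0.099, 0.41 ± 0.14 and -0.11 ± 0.091, none called, though Elane was called with the pool as a block (0.43, adjusted p = 0.00558), as were Mpo (-0.32, adjusted p = 0.00659) and Prtn3 (0.31, adjusted p = 0.00114) against NTB.

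Of 32 phagocyte lysosome and Fc receptor genes, 4 rose with BRQ against vehicle and none fell, against 1.71% of all genes called higher, with a median of 0.19. Of 19 neutrophil markers in the same comparison, 16 had positive values, none called by edgeR or DESeq2 and 5 at an unadjusted p under 0.05, with a median of 0.42, and their part in this result was not tested. Cybb, the catalytic chain of the phagocyte oxidase, stood at 162, 129.6 and 217 CPM in the NTB mice, 153, 157 and 101 CPM in the vehicle mice and 215, 197 and 198 CPM in the BRQ mice, and BRQ exceeded vehicle by 0.57 ± 0.14 (adjusted p = 0.0172), lost without any 1 of vehicle mouse 3 and BRQ mouse 1, at an adjusted p from 0.0695 to 0.156. Fcgr3, an IgG receptor gene, had 0.61 ± 0.17 with overlap between the groups, Cd53, a tetraspanin gene, 0.44 ± 0.11, and Cd68, a lysosomal glycoprotein gene, 0.75 ± 0.21. Cd53 was lost without any 1 of vehicle mice 2 and 3 and BRQ mice 1 and 2, at an adjusted p from 0.052 to 0.148, Cd68 without any 1 of vehicle mice 1 to 3 and BRQ mice 1 to 3, at an adjusted p from 0.0601 to 0.138, and Fcgr3 without any 1 of vehicle mice 1 and 3 and BRQ mice 1 to 3, at an adjusted p from 0.0587 to 0.237. With the pool as a block Cd68 had 0.73, adjusted p = 0.0515 and Fcgr3 0.56, adjusted p = 0.0645. Against NTB, Ctsc was the only call (log2 fold change 0.95 ± 0.15, adjusted p = 0.000701), as in vehicle against NTB, which shares the NTB mice.

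Of the monocyte programme, 2 of 17 transcription factors and 2 of 26 classical monocyte genes were called in BRQ against vehicle, all higher, where 1.71% of all genes were called higher. Among the transcription factors, Zeb2, a repressor that monocytes keep, rose with BRQ against vehicle (log2 fold change 0.38 ± 0.098, adjusted p = 0.0266), and so did Cebpd (log2 fold change 0.47 ± 0.13, adjusted p = 0.0444), with a median of 0.039. Zeb2 was lost without any 1 of vehicle mice 2 and 3 and BRQ mice 1 to 3, at an adjusted p from 0.0538 to 0.147 and Cebpd without any 1 of NTB mice 1 and 2, vehicle mice 1 and 3 and BRQ mice 1 and 2, at an adjusted p from 0.0575 to 0.258. Of 26 classical monocyte genes, Cd93 (0.45 ± 0.13) and Ccl9 (0.51 ± 0.13), a chemokine of myeloid cells, rose and none fell, with a median of 0.32, 21 positive values and 10 genes at an unadjusted p under 0.05. Cd93 was lost without any 1 of NTB mouse 1, vehicle mice 1 to 3 and BRQ mice 1 and 2, at an adjusted p from 0.0551 to 0.21, and Ccl9 without any 1 of vehicle mouse 1 and BRQ mice 2 and 3, at an adjusted p from 0.0517 to 0.391. Ly6c2 had 0.36 ± 0.12 (adjusted p = 0.0901), Klf4 0.26 ± 0.14 and Cx3cr1 -0.054 ± 0.19, none of which passed the test.

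Among called genes of at least 20 CPM whose groups did not overlap, the rises with BRQ outside these lists were led by Hdc, the histamine-forming enzyme of basophils and young myeloid cells, at 16.1, 14.4 and 20.9 CPM in the vehicle mice and 47.6, 39.3 and 37.7 CPM in the BRQ mice (log2 fold change 1.26 ± 0.19, adjusted p = 0.000239), Ifi27 (log2 fold change 1.14 ± 0.19, adjusted p = 0.00118), and C3, the central complement component, at 63.5, 43.3 and 37.2 CPM in the vehicle mice and 107, 133 and 99.0 CPM in the BRQ mice (log2 fold change 1.09 ± 0.16, adjusted p = 0.000209). H2-Q7, a nonclassical MHC class I gene, Hist1h2bc, a histone gene, and Smpdl3a, a phosphodiesterase gene, had 1.07 ± 0.20, 1.00 ± 0.21 and 0.93 ± 0.15. In each of these 6 the BRQ and vehicle mice did not overlap, and no call was lost without any 1 mouse. Itga1 and Cfp, which had fallen with the tumor, were higher with BRQ than with vehicle by 0.75 ± 0.20 (adjusted p = 0.0329) and 0.58 ± 0.15 (adjusted p = 0.0267), and the 2 comparisons share the vehicle mice. Itga1 was lost without any 1 of vehicle mice 2 and 3 and BRQ mice 2 and 3, at an adjusted p from 0.0576 to 0.2, and Cfp without any 1 of vehicle mice 1 to 3 and BRQ mice 1 and 2, at an adjusted p from 0.0725 to 0.148. Cenpv, a centromere protein gene, and Nucb2, the nucleobindin gene of the ER list, fell by 0.87 and 0.86 on the log2 scale, Cenpv lost without vehicle mouse 1, at an adjusted p of 0.144.

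**Figure D4:**
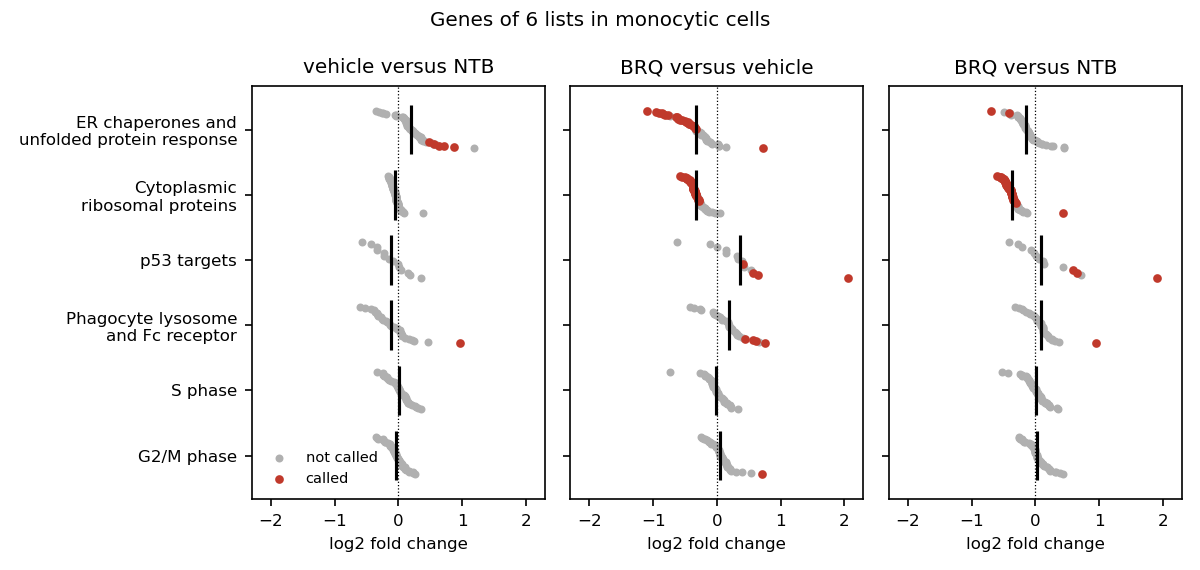
Log2 fold change of each tested gene (points, red where the adjusted p is under 0.05) of 6 gene lists in the 3 comparisons, with the list median as a black bar. Most ER genes lie to the right of 0 in vehicle against NTB and to the left in BRQ against vehicle, most ribosomal protein genes lie to the left in both BRQ comparisons, and the S phase and G2/M lists centre on 0.

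Compared with NTB mice, the BRQ-treated tumor bearers differed in 167 genes, 64 higher and 103 lower. The comparison shares its NTB mice with that of vehicle against NTB. It found Ifitm1 (log2 fold change 2.00 ± 0.31, adjusted p = 0.000701), Pim1 (log2 fold change 1.61 ± 0.29, adjusted p = 0.00279), Dmkn (log2 fold change 1.34 ± 0.21, adjusted p = 0.000701) and Hp (log2 fold change 0.90 ± 0.13, adjusted p = 0.000366) higher, and none of these 4 calls was lost without any 1 mouse. Their differences between BRQ and vehicle were -0.54 ± 0.24, -0.20 ± 0.21, -0.060 ± 0.15 and 0.35 ± 0.11, none of which passed the test. With the pool as a block Ifitm1 (-0.62, adjusted p = 0.0132) and Hp (0.38, adjusted p = 0.0316) did. Single mice decided these differences too. Without BRQ mouse 3, the highest of its group in both genes, Pim1 had -0.79 (adjusted p = 0.000236) and Ifitm1 -1.03 (adjusted p = 0.00281), while without BRQ mouse 2 Pim1 had 0.011. Without vehicle mouse 1 Ifitm1 had -0.88 (adjusted p = 0.0466) and Hp 0.55 (adjusted p = 0.0281), without vehicle mouse 2 Ifitm1 had -0.28, and without vehicle mouse 3 Hp had 0.17. The count of 167 became 87, 53, 107 and 68 without NTB mice 1 and 2 and BRQ mice 1 and 3, 0 with 20 cells a mouse and 8 with the rule applied to thinned cells.

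Ccl9 stood at 80.9, 89.1 and 76.9 CPM in the NTB mice, 81.8, 124 and 111 CPM in the vehicle mice and 121, 139 and 159 CPM in the BRQ mice, higher with BRQ than in NTB (log2 fold change 0.76 ± 0.14, adjusted p = 0.0043). Ms4a6d, a membrane protein gene of the Ms4a family, stood at 4.26, 10.7 and 14.2 CPM in the NTB mice, 28.8, 20.6 and 27.9 CPM in the vehicle mice and 31.3, 19.6 and 35.8 CPM in the BRQ mice (log2 fold change 1.41 ± 0.30, adjusted p = 0.0124, lost without any 1 of NTB mice 1 and 2 and BRQ mouse 3, at an adjusted p from 0.0505 to 0.123). Emilin2 rose as in the vehicle mice (log2 fold change 1.1 ± 0.24, adjusted p = 0.0124, lost without any 1 of NTB mice 1 and 2 and BRQ mouse 3, at an adjusted p from 0.053 to 0.167), so that 4 of 26 classical monocyte genes were higher and none lower, against 0.733% and 1.18% of all genes, with a median of 0.12. Muc13, a membrane mucin gene, rose (log2 fold change 1.13 ± 0.25, adjusted p = 0.0136, lost without NTB mouse 3, at an adjusted p of 0.18). Pou2f2, the only called gene of the 6 patrolling monocyte genes tested, had 0.52 ± 0.13 (adjusted p = 0.0251, lost without any 1 of NTB mice 1 to 3 and BRQ mouse 3, at an adjusted p from 0.0715 to 0.205). Nedd4 (log2 fold change -1.03 ± 0.20, adjusted p = 0.00651) and Bcl2 (log2 fold change -0.56 ± 0.13, adjusted p = 0.0214) were lower than in NTB, Nedd4 lost without NTB mouse 2, at an adjusted p of 0.0842 and Bcl2 without any 1 of NTB mice 2 and 3 and BRQ mouse 1, at an adjusted p from 0.079 to 0.324.

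Nfkbia, the inhibitor gene of NF-κB, stood at 29.8, 31.4 and 30.4 CPM in the NTB mice, 16.6, 14.4 and 15.5 CPM in the vehicle mice and 18.1, 19.4 and 11.9 CPM in the BRQ mice, lower with BRQ than in NTB (log2 fold change -0.91 ± 0.22, adjusted p = 0.0236) but lost without any 1 of NTB mice 1 to 3 and BRQ mouse 3, at an adjusted p from 0.0641 to 0.179. Kctd14, Fkbp1b and Mnd1, the last a meiotic recombination gene, had -1.03 ± 0.24, -0.98 ± 0.25 and -0.96 ± 0.24. Kctd14 was lost without any 1 of NTB mouse 2 and BRQ mouse 3, at an adjusted p from 0.0994 to 0.352, Fkbp1b without any 1 of NTB mice 1 and 3 and BRQ mice 2 and 3, at an adjusted p from 0.074 to 0.443 and Mnd1 without any 1 of NTB mice 1 and 2 and BRQ mouse 1, at an adjusted p from 0.121 to 0.173. Among the ribosomal protein genes, Rps20 had -0.61 ± 0.093 and Rps26 -0.54 ± 0.083, with neither call lost without any 1 mouse.

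Of the 8 MHC class II genes tested, which present antigen in dendritic cells and mature monocytes, Cd74, H2-Aa and H2-Ab1 had large fold changes that rested on few cells, while the other 5 were not called and the list's medians were -0.28, -0.26 and -0.19 for vehicle against NTB, BRQ against vehicle and BRQ against NTB. Cd74 had a UMI in 3.2% of monocytic cells against 1.87% of erythroid cells, and stood at 0, 30.5 and 176 CPM in the NTB mice, 39.8, 0 and 6.97 CPM in the vehicle mice and 1.54, 5.46 and 1.15 CPM in the BRQ mice. NTB mouse 3 and, among vehicle mice, mouse 1 carried most of it, and the groups overlapped. Cd74, H2-Aa and H2-Ab1 were called lower in BRQ against vehicle (-3.22, -2.81 and -2.16, adjusted p = 0.0219, 0.0369 and 0.0497) and against NTB (-4.86, -4.81 and -3.99, adjusted p = 0.000701, 0.000366 and 0.000366), and none in vehicle against NTB, where Cd74 had -1.64 (adjusted p = 0.172) and H2-Aa -2.0 (adjusted p = 0.0706). That count too hung on single mice, with 3 genes of the list called lower in vehicle against NTB without vehicle mouse 1, Cd74 (-3.95, adjusted p = 0.0497) and H2-Aa (-4.23, adjusted p = 0.0266) among them, 2 without NTB mouse 1, and 4 with no filter. Without NTB mouse 3 Cd74 had 0.23 and H2-Aa -0.69. In the BRQ comparisons, without vehicle mouse 1 the 3 genes were -0.90, -0.57 and -0.72 against vehicle, none called, and without NTB mouse 3 they were -2.96 (adjusted p = 0.0611), -3.46 and -2.77 against NTB. Each of the 3 calls against vehicle was also lost without BRQ mouse 1 or 3, and DESeq2 gave no adjusted p for these genes. The same 3 genes are also markers of conventional dendritic cells, 10 of whose 18 genes were tested, and their part in this result was not tested.

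Ms4a3, a gene of granulocyte and monocyte progenitors that the rule had capped, was read in cells chosen without its own limit. It stood at 440.2, 285 and 359 CPM in the NTB mice, 656, 759 and 594 CPM in the vehicle mice and 565, 502 and 620.2 CPM in the BRQ mice. Vehicle exceeded NTB by 0.91 ± 0.13 (adjusted p = 0.000742) and BRQ exceeded NTB by 0.67 ± 0.12 (adjusted p = 0.00399), the latter lost without NTB mouse 2 (adjusted p = 0.0813), while BRQ against vehicle showed -0.24 ± 0.12 (adjusted p = 0.301). Each of the other 6 positive genes of the rule was read the same way and none was called by edgeR in any comparison. Irf8, for instance, stood at 713, 771 and 719 CPM in the NTB mice, 683, 552 and 663 CPM in the vehicle mice and 767, 779 and 708 CPM in the BRQ mice, with -0.20 ± 0.099 (adjusted p = 0.373) for vehicle against NTB and 0.24 ± 0.097 (adjusted p = 0.193) for BRQ against vehicle. F13a1 had -0.37 ± 0.10 (adjusted p = 0.0713) for vehicle against NTB, and was called with the pool as a block (-0.37, adjusted p = 0.0366), while Csf1r showed 0.17 ± 0.12 (adjusted p = 0.49) and Ccr2 -0.25 ± 0.12 (adjusted p = 0.291) for BRQ against vehicle.

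Of 13 genes linked to MDSCs that could be tested, none was called in vehicle against NTB, where edgeR gave 4 an unadjusted p under 0.05 and DESeq2 called 0, with a median of -0.051. In BRQ against vehicle edgeR called 2 of the 13, both higher, where 1.71% of all genes were, and DESeq2 called 0. The list had 7 negative values and a median of -0.025. Cd84, a SLAM-family receptor gene, stood at 31.9, 26.4 and 27.5 CPM in the NTB mice, 16.4, 20.6 and 18.6 CPM in the vehicle mice and 28.3, 34.4 and 28.9 CPM in the BRQ mice, higher with BRQ than with vehicle (log2 fold change 0.80 ± 0.17, adjusted p = 0.00964, lost without vehicle mouse 1, at an adjusted p of 0.163). Clec4d, a C-type lectin gene, rose likewise (log2 fold change 0.99 ± 0.26, adjusted p = 0.0298, lost without any 1 of vehicle mice 1 to 3 and BRQ mice 1 and 3, at an adjusted p from 0.0575 to 0.321). Nos2, the inducible nitric oxide synthase gene, could not be tested, with 1 UMI in all 9 mice, and neither could Cd274, the PD-L1 gene, with 40, or Il1b, with 56.

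Genes of S phase, 43 in number, held no call by edgeR or DESeq2 in any comparison, with 2, 5 and 3 at an unadjusted p under 0.05 by edgeR, with medians of 0.016, -0.018 and 0.014 for vehicle against NTB, BRQ against vehicle and BRQ against NTB. Of 52 G2/M genes only Ect2, a cytokinesis gene, was called, higher with BRQ than with vehicle (log2 fold change 0.70 ± 0.16, adjusted p = 0.00991, lost without any 1 of vehicle mice 1 and 3, at an adjusted p from 0.0587 to 0.0961), at list medians of -0.037, 0.056 and 0.023 in the same order. Of 23 pyrimidine genes, Nme1, a nucleoside diphosphate kinase gene, rose in vehicle against NTB (log2 fold change 0.61 ± 0.11, adjusted p = 0.0044), and Nme2, its paralog, fell in BRQ against vehicle (log2 fold change -0.40 ± 0.11, adjusted p = 0.0311, lost without any 1 of vehicle mice 1 and 2 and BRQ mice 1 and 3, at an adjusted p from 0.0548 to 0.134). These are edgeR calls, and DESeq2 called 1, 2 and 1 of the pyrimidine genes and 0 of the G2/M genes in the same order of comparisons. Dhodh, the drug's target, stood at 25.5, 17.3 and 9.49 CPM in the NTB mice, 15, 22.7 and 11.6 CPM in the vehicle mice and 19.98, 13.9 and 16.3 CPM in the BRQ mice, with overlap throughout and 0.16 ± 0.24 for BRQ against vehicle (adjusted p = 0.804).

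Of the cytokine receptors, Csf3r, the G-CSF receptor gene, stood at 53.2, 58.6 and 70.2 CPM in the NTB mice, 36.4, 51.5 and 45.7 CPM in the vehicle mice and 59.9, 72.3 and 61.3 CPM in the BRQ mice, higher with BRQ than with vehicle (log2 fold change 0.65 ± 0.14, adjusted p = 0.00862, lost without vehicle mouse 1, at an adjusted p of 0.223). Il3ra, the IL-3 receptor alpha chain gene, had 0.62 ± 0.18 (adjusted p = 0.0424, lost without any 1 of NTB mouse 1, vehicle mice 1 and 3 and BRQ mice 1 to 3, at an adjusted p from 0.0557 to 0.277), and with 20 cells a mouse its direction turned. The 23 adhesion and egress genes tested held no edgeR call in any comparison, with 2, 2 and 4 at an unadjusted p under 0.05 and 0, 0 and 1 called by DESeq2. Of the 21 tested genes of the interferon-stimulated list, which did not hold Ifi27, only Ly6e was called in BRQ against vehicle (log2 fold change 0.33 ± 0.097, adjusted p = 0.0469, lost without any 1 of NTB mouse 2, vehicle mice 1 to 3 and BRQ mice 1 to 3, at an adjusted p from 0.0644 to 0.218). In BRQ against NTB, Ifitm1 was again higher and Ifi27l2a and Ifi44 lower (-2.59 ± 0.43 and -2.32 ± 0.45), the last 2 lost without NTB mouse 3 (adjusted p = 0.261 and 0.308).

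Markers of other cells were read in the same sums. The 19 neutrophil markers tested summed, over the whole list and as the lowest and highest mouse of a group, to 28.8 to 103 for NTB, 27.1 to 109 for vehicle and 45.0 to 132 for BRQ UMIs per 10000. The groups overlapped, and Retnlg was the only one called, higher with BRQ than in NTB (log2 fold change 2.21 ± 0.54, adjusted p = 0.028, lost without any 1 of NTB mice 1 and 2 and BRQ mice 2 and 3, at an adjusted p from 0.057 to 0.326 and turned to -1.14 without the cells Scrublet marked). The macrophage list summed to 0.576 to 2.87 for NTB, 0.409 to 0.925 for vehicle and 0.759 to 0.774 for BRQ, and its only call was Apoe, at 19.2, 7.43 and 146 CPM in the NTB mice, 44.3, 6.19 and 7.74 CPM in the vehicle mice and 6.15, 4.37 and 5.28 CPM in the BRQ mice. Apoe was lower with BRQ than with vehicle (-2.44 ± 0.65, lost without any 1 of vehicle mouse 1 and BRQ mice 1 to 3, at an adjusted p from 0.0597 to 0.916) and than in NTB (-3.56 ± 0.63, lost without NTB mouse 3, at an adjusted p of 0.688). The erythroid list summed to 0.667 to 1.30 for NTB, 0.446 to 1.22 for vehicle and 0.641 to 1.64 for BRQ, with Tfrc, the transferrin receptor gene of dividing cells, lower in BRQ than in vehicle (log2 fold change -0.60 ± 0.15, adjusted p = 0.0248, lost without any 1 of vehicle mice 1 and 3 and BRQ mouse 2, at an adjusted p from 0.0755 to 0.278). B cell markers summed to 2.28 to 3.34 for NTB, 2.00 to 2.73 for vehicle and 2.32 to 2.93 for BRQ and plasmacytoid dendritic cell markers to 2.40 to 3.04 for NTB, 2.36 to 2.78 for vehicle and 2.57 to 3.18 for BRQ, with no call. Stem and multipotent progenitor markers summed to 2.47 to 2.83 for NTB, 3.36 to 6.13 for vehicle and 3.47 to 6.0 for BRQ, with Cd34 and Ifitm1 as its calls. T and NK cell and megakaryocyte markers were at or near 0, with no gene tested, and basophil, mast and eosinophil markers summed to 0.517 to 1.96 for NTB, 0.213 to 0.571 for vehicle and 0.747 to 1.09 for BRQ, with Hdc as the call. Leaving out the cells Scrublet marked or those rich in neutrophil RNA gave 22 and 23 lower ER genes and 45 and 45 lower ribosomal protein genes in BRQ against vehicle.

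GMPs of the same 9 mice, 3922 cells with high Ms4a3, were chosen for comparison. How near they stand to the monocytic cells was not tested. Their neutrophil markers summed to 297 to 537 UMIs per 10000 in a mouse, against 27.1 to 132 in monocytic cells. In all 7021 GMPs, Mpo averaged 56.0 UMIs per 10000 and Cd34 0.118, against 50.6 and 1.41 in monocytic cells. An interaction of cell set and group, with the mouse as a block, asked whether a change differed between monocytic cells and GMPs. Of 10209 genes, 31 (0.304%) differed in their response for vehicle against NTB, 98 (0.96%) for BRQ against vehicle and 120 (1.18%) for BRQ against NTB. The difference was called for 11 of 55 ER genes under BRQ against vehicle and for Ly6c2 and Ly6c1 under the tumor. Without vehicle mouse 1 the counts for the first 2 comparisons became 8 and 34, without NTB mouse 2 those for the first and last 19 and 54, and for BRQ against vehicle it was 55 without vehicle mouse 3 and 65 without BRQ mouse 1.

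For ER genes, 49 of 54 were called lower in GMPs of BRQ than of vehicle mice, where 7.46% of all 10305 genes tested in GMPs were, at a median of -0.57. In monocytic cells, with fewer cells and 2.6% of all genes called lower, it was the 23 at -0.33. The interaction was called for 11 of 55, each with the smaller fall in monocytic cells. Creld2 changed by -0.96 ± 0.12 in monocytic cells and -1.85 ± 0.12 in GMPs, a difference of 0.85 ± 0.13 (adjusted p = 4.07e-05). Fkbp11 rose with the tumor by 1.73 ± 0.13 in GMPs against 0.61 ± 0.17 in monocytic cells, a difference of -1.1 ± 0.20 (adjusted p = 0.00312), lost without vehicle mouse 1 (adjusted p = 0.172). Ribosomal protein genes fell by a median of 0.40 on the log2 scale in GMPs with BRQ against vehicle (61 of 77 called lower), and none of the 77 interactions was called by edgeR in any comparison, with 3, 0 and 1 at an unadjusted p under 0.05 for vehicle against NTB, BRQ against vehicle and BRQ against NTB. The median of the differences for BRQ against vehicle was 0.044, and differences of this size may lie below what the test detects.

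On the CPM scale of the joint fit, normalised over the 18 sums of both cell sets, Ly6c2 averaged 507 in monocytic cells and 179 in GMPs of NTB mice. With the tumor it changed by -0.39 ± 0.12 in monocytic cells and by -1.69 ± 0.16 in GMPs, a difference of 1.34 ± 0.13 (adjusted p = 2.89e-09), and Ly6c1 by -0.62 ± 0.14 and -1.62 ± 0.20 (difference 1.02 ± 0.16, adjusted p = 0.000844). Neither interaction was lost without any 1 mouse. Nedd4 fell in monocytic cells (-1.32 ± 0.24) and showed -0.16 ± 0.11 in GMPs (adjusted p of the difference = 0.0138), lost without NTB mouse 1 or 3 or vehicle mouse 3. In the BRQ against vehicle comparison, Anxa1, the annexin A1 gene, showed 0.27 ± 0.17 in monocytic cells and 1.78 ± 0.22 in GMPs, and Crip1 -0.15 ± 0.20 and 1.04 ± 0.18 (adjusted p of the difference = 0.000413 and 9.2e-07), both lost without vehicle mouse 1 (adjusted p = 0.171 and 0.14). S100a6, a small calcium-binding protein gene, differed for BRQ against NTB, with -0.027 ± 0.23 in monocytic cells and 1.91 ± 0.40 in GMPs (adjusted p of the difference = 1.1e-06), and this call held without each single mouse.

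**Figure D5:**
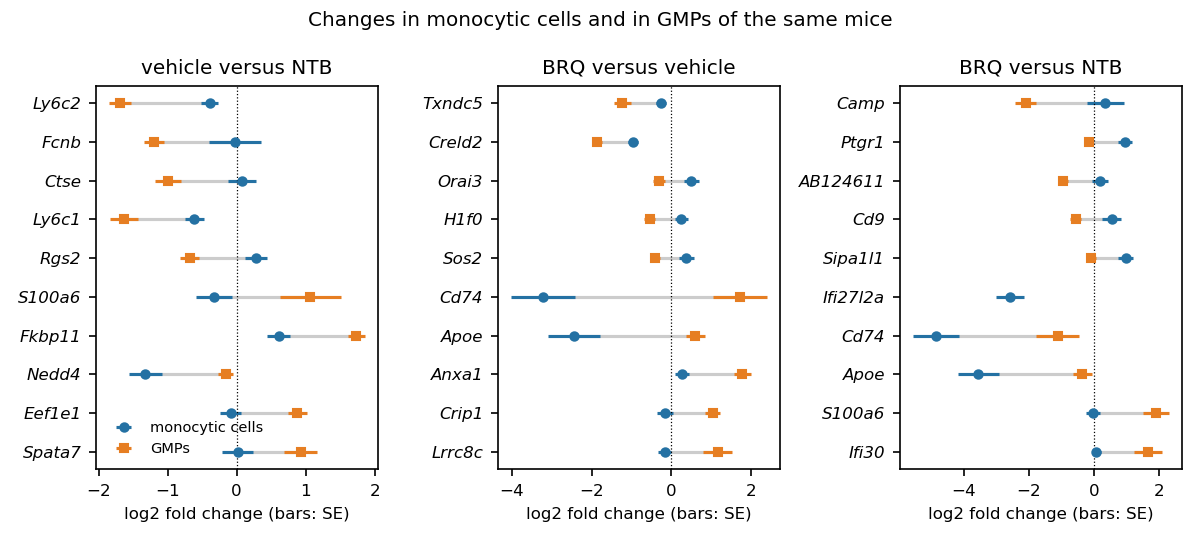
Log2 fold change in monocytic cells (blue circles) and in GMPs (orange squares) of the same mice, with SE bars, for the 10 genes with the largest called differences in each comparison. Ly6c2 and Ly6c1 sit nearer to 0 in monocytic cells than in GMPs for vehicle against NTB, as does Creld2 for BRQ against vehicle, and Ifi27l2a was too low in GMPs to be fitted there.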

How the data were processed

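RNA and hashtags of 3 pools of c-Kit-enriched cells were read on the 10x 3′ platform. The authors deposited UMI counts per gene and cell barcode, made with Cell Ranger 6.0.0 on mm10 by the submitters' processing notes, and counts per hashtag, and both tables were used as raw counts. Pools held 13750, 11441 and 14297 barcodes at median depths of 7996, 7445 and 7445 UMIs, and cells with 500 to 7500 genes and at most 15% mitochondrial UMIs were kept, reading the study's transcript limits as genes.

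Mice were assigned with HTODemux (Seurat 5.3.0) at a quantile of 0.99. Doublets were marked with Scrublet in scanpy 1.11.5 and kept in the main sums. UMIs of monocytic cells were summed per mouse and tested over 9 mice in 1 fit with edgeR 4.0.16 (quasi-likelihood test, TMM, filterByExpr, which left 8735 of 16487 detected genes), calling genes at a Benjamini-Hochberg adjusted p under 0.05. Beside it stood DESeq2 1.42.0, RLE factors, no filter, the pool as a block, each mouse left out, stricter or looser rules and tags, thinned cells and equal cells. The difference from GMPs was an interaction over 18 sums. Shares were tested with exact permutation tests. Clusters used 2000 variable genes without the rule's genes, 20 components, 15 neighbours and Leiden resolution 0.5. Gene IDs matched GENCODE M21 for 99.6%.

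The members and the gene lists were chosen with earlier results of these data known. Named genes were a list of 42, per comparison the 6 largest and 6 smallest log2 fold changes among called genes of at least 20 CPM without overlap between the groups, up to 3 called genes per list, the 5 largest and 5 smallest called differences from GMPs, and the 15 highest ratios to other cells among genes in 25% of members. Hp, Kit, Manf, Hsp90b1, Fcgr3, Ern1, Bax, Dnajc3, Pdia6, Ms4a6d, Rps27l, Treml4, Ear2, Ace, Ngp, Xbp1, Atf4 and Ddit3, and Itga1, Cfp, Ifitm1, Pim1 and Dmkn in BRQ against vehicle, were named after their values were seen.

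Same-numbered mice share a pool by the labels. Their deviations from the group means had a median correlation of 0.0143 over 9 pairs against -0.0076 over 18 other pairs. Tested on simulated data, the fit for BRQ against vehicle called 97% of 2-fold and 100% of 4-fold changes over 8735 genes, with 6.19% of calls false, and the interaction 72% and 98% over 10209 genes, with 7.10% false. Promoters came from RefSeq, GRCm38.p6. A few genes are not reported here.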

Additional observations from a re-analysis of the deposited data

Results flagged for a closer look

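The change between 2 groups differed between monocytic cells and GMPs for the following genes by edgeR's interaction test, given as the log2 change in monocytic cells minus that in GMPs. For vehicle against NTB the largest positive differences were Ly6c2 1.34, Fcnb 1.19, Ctse 1.07, Ly6c1 1.02 and Rgs2 1.01, and the largest negative ones S100a6 -1.31, Fkbp11 -1.1, Nedd4 -1.06, Eef1e1 -0.93 and Spata7 -0.85. For BRQ against vehicle they were Txndc5 0.91, Creld2 0.85, Orai3 0.77, H1f0 0.74 and Sos2 0.71 on the positive side and Cd74 -5.12, Apoe -3.13, Anxa1 -1.44, Crip1 -1.32 and Lrrc8c -1.32 on the negative side. For BRQ against NTB they were Camp 2.26, Ptgr1 1.15, AB124611 1.14, Cd9 1.11 and Sipa1l1 1.08 on the positive side and Ifi27l2a -4.57, Cd74 -3.82, Apoe -3.30, S100a6 -1.99 and Ifi30 -1.62 on the negative side. Ifi27l2a was too low in GMPs to be fitted in them alone, so the size of its difference is unsure. Of these differences, those of Ly6c2, Ly6c1, Creld2, Camp and, for BRQ against NTB, S100a6 kept their call without each single mouse, and the others did not. For vehicle against NTB, Fcnb (0.47, adjusted p = 0.833), Ctse, Rgs2, Fkbp11, Eef1e1 and Spata7 were lost without vehicle mouse 1, Fcnb (0.79, adjusted p = 0.249), Ctse, Rgs2, S100a6 and Spata7 without NTB mouse 2, S100a6, Nedd4 and Eef1e1 without NTB mouse 3, Nedd4 and Eef1e1 without NTB mouse 1, and Nedd4 without vehicle mouse 3. For BRQ against vehicle, Txndc5, Orai3, H1f0, Sos2, Cd74 (-1.63, adjusted p = 0.83), Apoe (-1.64, adjusted p = 0.559), Anxa1 and Crip1 were lost without vehicle mouse 1, Orai3 also without 3 other mice, H1f0 without 4, Sos2 without 5, and Lrrc8c without 6 mice, with these 4 at an adjusted p from 0.0511 to 0.402, and Lrrc8c had -2.64 without vehicle mouse 1, still called. For BRQ against NTB, Ifi27l2a (-2.84, adjusted p = 0.425), Cd74 (-1.67, adjusted p = 0.602), Apoe (-1.11, adjusted p = 0.53), Ptgr1 and Ifi30 were lost without NTB mouse 3, AB124611, Cd9, Sipa1l1 and Ifi30 without NTB mouse 2, Cd9, Cd74 and Ifi30 without BRQ mouse 1, and Ifi30 also without vehicle mouse 1 or BRQ mouse 3. On the scale of the joint fit the level of Cd74 in GMPs was 9.45, 1.24 and 3.58 CPM on average in the NTB, vehicle and BRQ mice. Camp, a neutrophil granule gene, averaged 2515 CPM in GMPs of NTB mice and 589.9 CPM in those of BRQ mice. Within the monocytic cells Camp stood at 66.7 UMIs per 10000 in cluster 5, of which Scrublet marked 67.9%, against 0.796 in the rest. The part of this cluster in the difference for Camp was not tested.

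Cells without a clear tag held 305 monocytic cells, and these, like the 155 with 2 tags or more, entered no comparison. Monocytic cells made up 1.64%, 3.22% and 1.93% of the cells without a clear tag in pools 1, 2 and 3. Each of these shares was below that of every tagged mouse of the same pool.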

How the results depend on the processing

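With 1 mouse left out, the genes called in monocytic cells ranged 22 to 106 for vehicle against NTB, 154 to 405 for BRQ against vehicle and 53 to 197 for BRQ against NTB, the called differences from GMPs 8 to 43, 34 to 113 and 54 to 130, the differences in share 0.592 to 1.79, 2.14 to 3.48 and 3.34 to 4.77 percentage points, and the rule genes called 1 to 2, 0 to 0 and 0 to 1. For vehicle against NTB the count of calls was 235 with no filter, 107 with the pool as a replicate block, 122 without cells marked by Scrublet, 13 with at least 2 UMIs each of Irf8, Csf1r and Ly86, 218 with 2 of Irf8, Csf1r and Ly86 enough, 5 with the rule applied to cells thinned to 3000 UMIs, 123 with low neutrophil RNA, 25 with equal cells, 172 with a scaled tag ratio and 134 without clusters 5 and 6. For BRQ against vehicle it was 248 in DESeq2, 117 with at least 2 UMIs, 2 thinned, 20 with equal cells and 602 with a scaled tag ratio. For BRQ against NTB it was 269 with no filter, 43 with at least 2 UMIs, 8 thinned and 0 with equal cells. The called differences from GMPs were 76 with no filter and 48 without cells marked by Scrublet for vehicle against NTB, and 53 with clear singlets only for BRQ against vehicle. Read with the study's limits as UMIs, vehicle lay below NTB in share (a difference of -0.13 percentage points, exact permutation p = 0.8), opposite to the main direction. The excess of BRQ was then 0.242 points over vehicle (exact permutation p = 0.7) and 0.112 points over NTB (exact permutation p = 0.9). These shares rest on 0 to 9 monocytic cells a mouse. A further rule gene was called for vehicle against NTB in DESeq2, with no filter, with the replicate block and without cells marked by Scrublet, 2 in each. A Leiden resolution of 1 gave 13 clusters. Among values called in the main fit, the direction turned for Il3ra for BRQ against vehicle to -0.062 with equal cells, and Retnlg for BRQ against NTB to -1.14 without cells marked by Scrublet and -0.17 without clusters 5 and 6. Over all settings, values of single genes kept direction and side of the threshold 4250 times, lost the call 599 times and gained it 80 times. Their direction changed 266 times where the main value was not called and 3 times where it was. List medians kept their sign 931 times and changed it 125 times. The cause of these changes was not tested, except that the thinned, stricter and equal-cell settings leave fewer cells by construction. The replicate block gave 464 and 243 calls for the BRQ comparisons and kept 65, 356 and 167 of the calls made without it. The raw tag ratio and the limits as UMIs left too few monocytic cells in some mice for a fit. The scaled tag ratio, clear singlets, thinning to 9000 UMIs and leaving out clusters 5 and 6 were chosen after seeing the data. With 20 and 24 cells in vehicle mouse 2 and NTB mouse 1, a low gene that was not called may still differ.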
